A study of Bos taurus with 36 samples.

Results

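The liver of dairy cows was compared between 12 h after infusion of lipopolysaccharide (LPS) into the udder and 22 h before it (-22 h). The comparison uses every array labelled 12 h (4 cows) and every array labelled -22 h (8 cows), 12 of the 36 arrays of the series. The arrays came from 8 Holstein-Friesian animals in the first lactation, which had calved 9 to 12 weeks before and whose udders were free of infection. Each animal carried a catheter in the jugular vein. LPS of *Escherichia coli* (200 μg in 10 ml of saline) was given into a single front gland of the udder at 0 h, and the opposite front gland received saline without LPS. The 4 cows sampled at 12 h, called cows 1, 3, 7 and 8 here after their replicate number at -22 h, are also among the 8 cows at -22 h, so that each has a pair of arrays. Every cow on the arrays was treated, and -22 h is the control. The biopsies at 12 h were taken 34 h after those at -22 h and therefore at another clock time (10 h apart), and the 4 cows had been biopsied 4 times before 12 h. LPS, clock time and earlier biopsies cannot be told apart within these groups. The study reports a separate control with saline-infused cows, in which biopsies altered neither clinical measures nor the genes chosen for that check. Those cows are not on the arrays.

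LPS is the outer membrane lipid of Gram-negative bacteria. Toll-like receptor 4 on macrophages and other cells recognises it and, through NF-kappaB, starts the production of TNF-alpha, interleukin 1 and interleukin 6. These cytokines reach the liver with the blood, where interleukin 6 acts on hepatocytes through JAK kinases and STAT3 and interleukin 1 through NF-kappaB. The hepatocytes then make acute phase proteins, secreted proteins that bind bacteria, free haemoglobin, metals or proteases, while they make less of other plasma proteins and of many metabolic enzymes. This change of output is called the acute phase response (APR), and its products acute phase proteins (APP).

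All values are log2 intensities of the Affymetrix Bovine Genome Array, on which a difference of 1 is a 2-fold difference in signal. Levels of different genes cannot be set against each other because their probes differ. A gene was read through 1 probe set, and changes are 12 h minus -22 h with the standard error (SE) of a linear model over all 36 arrays. For each gene the model uses an estimate of spread shared by all hours. Where the cows differed more at 12 h than at other hours, its SE and p-values do not reflect this. An adjusted p (Benjamini-Hochberg, over all 24128 probe sets) below 0.05 counted as a call, and "rose" and "fell" are used only of such genes. The processing gives no detection call and the lower values carry little information, so for a gene below 5 on every array of 1 hour the change is a lower bound: this holds for 400 genes that rose from such values and 324 that fell to them. A row of 4 values for 12 h belongs to cows 1, 3, 7 and 8 in this order, and "controls" followed by a pair of values gives the lowest and the highest of the 8 arrays at -22 h.

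The tissue label was checked on hepatocyte markers. The mean level over 15 hepatocyte markers was 14.47 ± 0.10 (SD, n = 8) at -22 h and 14.03 ± 0.06 (n = 4) at 12 h, and albumin (*ALB*) stood between 15.87 and 16.22 (median 16.17) at -22 h and at 15.97, 15.93, 16.19 and 16.10 at 12 h, near the highest value of any array (16.37). In bulk tissue fewer cells of a type and less RNA per cell cannot be told apart. Arrays of the same hour correlated at 0.980 to 0.994 at -22 h and 0.979 to 0.988 at 12 h. The array of cow 7 at -22 h had the lowest median (4.15, with all others at -22 h between 4.28 and 4.37), the lowest mean correlation with the other arrays of its hour (0.984) and the brightest bacterial control spots (mean log2 value 11.69 against 9.06 to 9.81).

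Cow 1 stood apart at -22 h in another way. Of the 1368 genes that rose at least 2-fold, cow 1 had the highest of the 8 values at -22 h in 648 (47.4%), cow 3 in 237 (17.3%) and each of the other 6 cows in 57 to 107. In the 1128 genes that fell at least 2-fold, the lowest value at -22 h belonged to cow 1 in 286 (25.4%) and to cow 7 in 259 (23.0%). These counts were not made over all measured genes, so they do not show whether this was particular to genes that changed. *SOCS3*, the feedback inhibitor of cytokine signaling, stood at 6.12 in cow 1 at -22 h and between 2.49 and 3.35 in the other 7 cows. The glutathione peroxidase *GPX3* stood at 9.36 in cow 1 against 4.21 to 4.92, and the stress gene *GADD45B* at 9.46 against 5.11 to 6.56. For such genes the array of cow 1 lay, before LPS was given, between the other cows at -22 h and the 4 arrays at 12 h, or within the range of the latter. Without that array 5324 probe sets rose and 4588 fell, against 5360 and 4559 with it, and the changes of *GPX3*, *MT1A*, *SOCS3*, *PIM1* and *GADD45B* became 8.60, 7.85, 5.52, 3.58 and 4.00 in place of 8.00, 7.17, 5.08, 3.13 and 3.53.

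**Figure D1:**
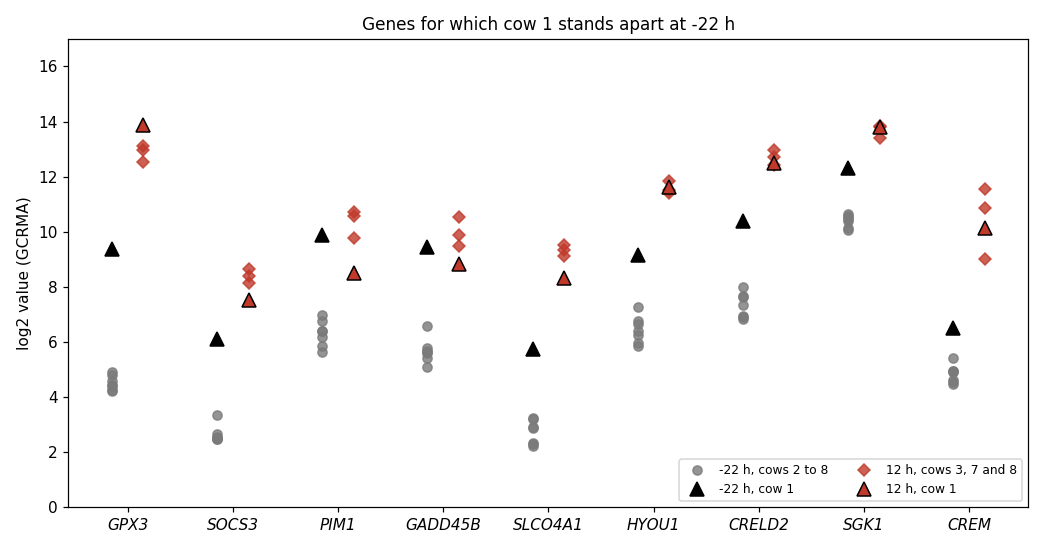
Log2 values (vertical axis) of 9 genes on the 8 arrays at -22 h (grey circles, cow 1 as a black triangle) and the 4 arrays at 12 h (red diamonds, cow 1 as a red triangle). Cow 1 lies above the other 7 cows at -22 h for each of the 9 genes, which were chosen after their values were seen.

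At 12 h 9919 of the 24128 probe sets (41.1%) were called, 5360 higher (22.2%) and 4559 lower (18.9%), and 5120 (21.2%) also changed at least 2-fold. Among the 9155 measured genes, 2830 (30.9%) rose and 2032 (22.2%) fell, with a median log2 change over all genes of 0.02. Large changes were few: 46 genes rose and 56 fell by 4 or more, and 16 rose and 5 fell by 6 or more. Of the 4862 genes called, 4359 (89.7%) moved the same way in all 4 cows, and 3398 (69.9%) had no overlap between the 8 arrays at -22 h and the 4 at 12 h. The genes were called from these same arrays, so that both counts follow in part from the call and are no separate check of it. Neither was made over all measured genes. In a fit of the 4 cows alone with each cow as its own control, called the paired fit here, 3164 probe sets rose and 2925 fell. Lists of genes for 36 processes ranged from nearly all members called in 1 direction to shares near those of all genes.

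**Figure D2:**
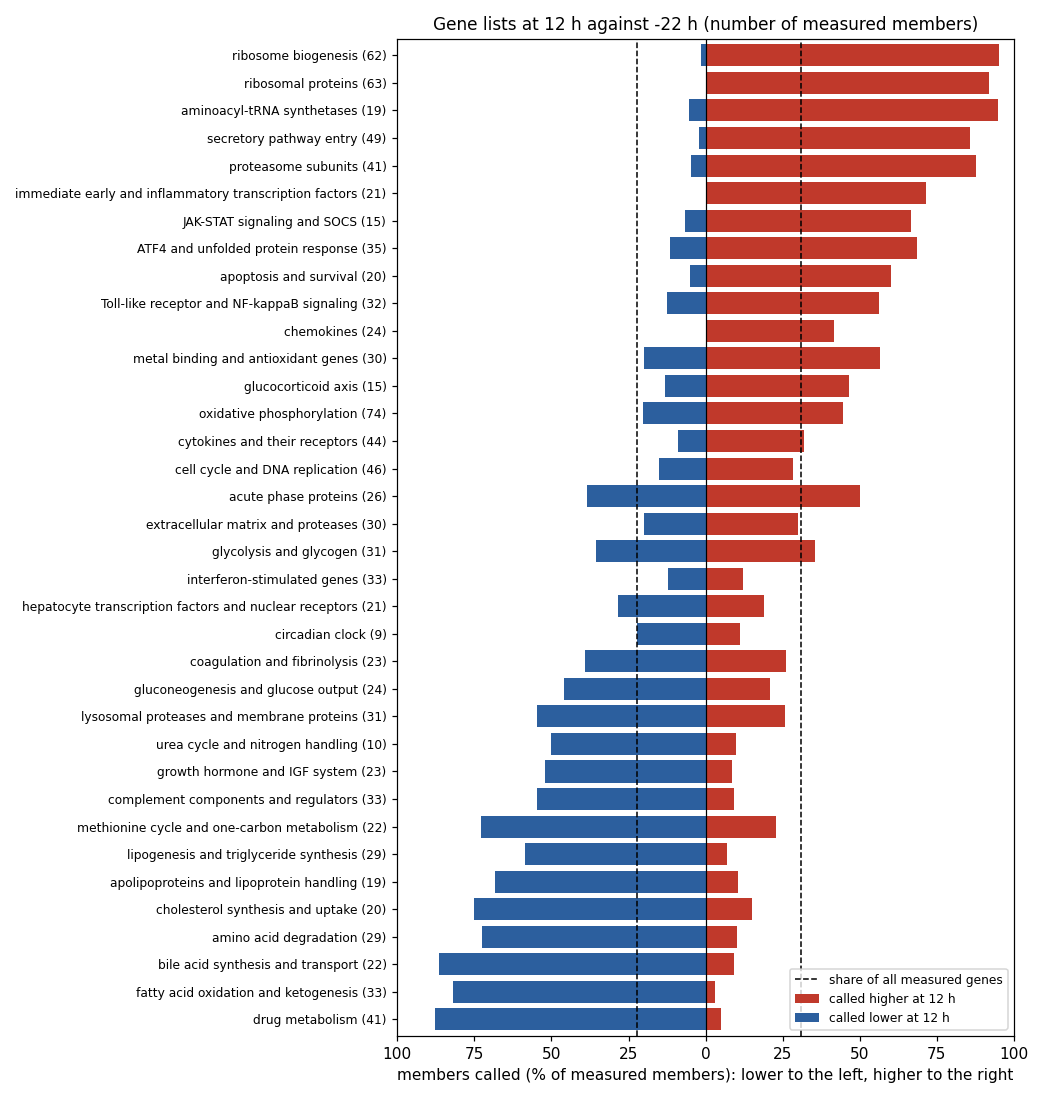
Share of measured members (horizontal axis, %) called higher (red, to the right) and lower (blue, to the left) at 12 h against -22 h in each of 36 gene lists, with the number of measured members in brackets. Dashed lines are the shares of all 9155 measured genes (30.9% higher, 22.2% lower): lists of protein synthesis lie beyond the line on the right and lists of lipid, bile acid, drug and amino acid metabolism beyond the line on the left.

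Receptors of cytokines included the largest rise of all measured genes. *TNFRSF6B*, a secreted decoy receptor that binds FAS ligand and related ligands, lay between 1.61 and 1.67 (median 1.63) at -22 h, the bottom of the scale, and at 10.49, 10.79, 10.59 and 10.83 at 12 h, a change of at least 9.04 (SE 0.11, adjusted p = 3.86e-33). All 4 cows lay close together, far above every control. *TNFRSF12A*, the receptor of the cytokine TWEAK, rose to 10.91, 11.29, 11.66 and 9.39 (controls 3.91 to 4.91, change 6.56, SE 0.47). *IFNAR1*, a subunit of the type I interferon receptor, rose to 11.27, 10.63, 11.64 and 11.09 (controls 4.95 to 8.53, change 4.60, SE 0.45), and its controls were widely spread. *IL1RAP*, the accessory chain of the interleukin 1 receptor, fell to 9.65, 8.89, 8.92 and 8.75 (controls 10.34 to 11.22, change -1.78, SE 0.29). In all, 14 of 44 measured cytokines and receptors rose (31.8%, near the 30.9% of all genes) and 4 fell (9.1% against 22.2%). The median of the list was 0.07, with 9 higher and 4 lower in the paired fit, and 16 of the 44 were below 5 on all 12 arrays. The others that fell were a subunit of the interleukin 13 receptor (*IL13RA1*), the cytokine *IL18* and *IFNGR2*, a subunit of the interferon gamma receptor. *IL6* itself differed in 1 animal only. It stood at 2.54, 2.61, 6.56 and 2.63 (controls 2.44 to 2.70), so that cow 7 alone left the range at -22 h. Its change of 1.01 (SE 0.38, adjusted p = 0.031) rested on that array, without which it was 0.02, and with the cow as a block in the model its adjusted p was 0.0527.

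The signaling genes between receptor and nucleus moved mostly upwards. Of 32 Toll-like receptor and NF-kappaB genes 18 rose and 4 fell (median 0.57, 9 higher and 1 lower in the paired fit), and of 15 JAK-STAT and SOCS genes 10 rose and 1 fell (median 1.33, 6 higher and 1 lower in the paired fit). *IRAK1*, a kinase downstream of Toll-like and interleukin 1 receptors, rose to 9.33, 9.63, 9.38 and 9.41 (controls 6.69 to 7.14, median 6.90), a change of 2.54 (SE 0.11, adjusted p = 9.76e-19). *BCL3*, an NF-kappaB cofactor of the I-kappaB family, rose to 6.60, 6.93, 7.24 and 6.66 (controls 4.11 to 5.83, change 2.35, SE 0.26). *SIGIRR*, an inhibitor of the same receptors, fell to 7.52, 7.55, 6.70 and 7.56 (controls 7.99 to 8.52, change -0.92, SE 0.13) and was not called in the paired fit (adjusted p = 0.0619). For *SIGIRR* cow 7 was lowest at 12 h. *STAT3*, the transcription factor of interleukin 6 signaling, rose to 13.61, 13.38, 13.48 and 13.57 (controls 9.98 to 12.23, median 10.70), a change of 2.66 (SE 0.23, adjusted p = 2.22e-11). Its 4 cows lay in a narrow range above widely spread controls. *SOCS3* stood at 7.51, 8.39, 8.66 and 8.13 at 12 h, a change of 5.08 (SE 0.49, adjusted p = 1.85e-10). The kinase *PIM1*, a target of STAT proteins, stood at 8.51, 9.78, 10.71 and 10.58 (controls 5.64 to 9.90, change 3.13, SE 0.50). Its groups overlapped because cow 1 was already at 9.90 at -22 h, and in the paired fit, which sets cow 1 against that value, it was not called (adjusted p = 0.212).

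Of 33 measured interferon-stimulated genes, the targets of type I and II interferons, 4 rose and 4 fell (median 0.21, 2 higher and 2 lower in the paired fit). Both shares, 12.1% and 12.1%, were below those of all genes (30.9% and 22.2%). The rises were those of *TRIM21*, *HERC6*, *PSMB9*, an immunoproteasome subunit (1.72, SE 0.49), and *EIF2AK2*, the kinase activated by double-stranded RNA (1.24, SE 0.34, paired adjusted p = 0.327). The falls were those of *IFIT5*, *IRF3*, *TRIM25* and *DHX58*, an RNA helicase of antiviral sensing (-1.57, SE 0.40, paired adjusted p = 0.0698).

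Immediate early and inflammatory transcription factors rose in 15 of 21 cases and fell in 0 (median 1.60, 6 higher and 0 lower in the paired fit). At limma's unadjusted p below 0.05, 0 were lower in this list and 0 among the ribosomal proteins below. *CREM*, a factor of cAMP signaling, rose to 10.13, 11.54, 10.86 and 9.03 (controls 4.49 to 6.50, median 4.93), a change of 5.34 (SE 0.37, adjusted p = 1.32e-13). The AP-1 subunit *JUNB* rose by 3.59 (SE 0.32). Its partner *FOS* was uneven, at 7.33, 10.28, 11.46 and 5.62 (controls 3.27 to 3.89, change 5.05, SE 0.59), with cow 7 high and cow 8 low although all 4 cows lay above every control. Among 20 genes of apoptosis and survival 12 rose and 1, *GADD45A*, fell (median 1.16, 7 higher and 0 lower in the paired fit). *BAX*, which promotes cell death, rose to 4.62, 5.18, 4.55 and 4.44 (controls 2.51 to 2.99, change 2.03, SE 0.12). *BIRC3*, an inhibitor of apoptosis, rose to 11.08, 12.22, 13.36 and 9.65 (controls 8.56 to 9.99, change 2.26, SE 0.40), with cow 8 within the range of the controls and an adjusted p of 0.149 in the paired fit. *GADD45B*, a stress-induced relative of *GADD45A*, stood at 8.84, 9.89, 10.54 and 9.49 (controls 5.11 to 9.46) (paired adjusted p = 0.134). Genes of opposite function thus rose together.

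Of 21 hepatocyte transcription factors and nuclear receptors 4 rose and 6 fell (median -0.07, 1 higher and 3 lower in the paired fit). The share that rose, 19%, was below the 30.9% of all genes. The share that fell, 29%, stood beside 22.2% of all genes. The forkhead factor *FOXA3* rose to 9.32, 9.61, 9.52 and 9.67 (controls 5.97 to 7.67, change 2.64, SE 0.39). *THRA*, a thyroid hormone receptor, fell to 5.74, 5.98, 6.03 and 6.58 (controls 8.28 to 8.99, change -2.60, SE 0.20). *RXRA*, the partner of many nuclear receptors, fell to 9.48, 8.92, 8.95 and 9.49 (controls 10.64 to 11.54, change -1.82, SE 0.15). The hours did not overlap for any of the 3 genes.

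The acute phase proteins moved in both directions: 13 of 26 rose and 10 fell (median 0.10). Serum amyloid A3 (*SAA3*), a major APP of cattle, rose to 13.83, 13.29, 13.27 and 15.06 (controls 5.50 to 8.73, median 8.08), a change of 6.15 (SE 0.54, adjusted p = 2.53e-11). Alpha-2-macroglobulin (*A2M*), a protease inhibitor, rose to 14.69, 14.72, 14.74 and 14.89 (controls 9.39 to 11.48, median 10.69), a change of 4.26 (SE 0.24, adjusted p = 8.71e-16). For *A2M* the 4 cows lay within 0.2 of each other while the controls spanned more than 2, a difference in spread that was not tested. At 9 h the 8 arrays had also lain close together, between 14.67 and 14.87. Whether the probes of *A2M* saturate at this level was not tested. Haptoglobin (*HP*), which binds free haemoglobin and was named after its values were seen, ranged from 7.33 to 15.14 at -22 h, with cow 1 highest, and stood at 15.91, 15.85, 15.98 and 15.98 at 12 h, close to the top of the scale, so that the spread at the 2 hours was not compared. Its change of 4.12 (SE 0.95, adjusted p = 5.05e-04) was not called in the paired fit (adjusted p = 0.0816). The long pentraxin *PTX3*, which binds microbes, rose to 5.95, 9.58, 10.36 and 6.52 (controls 2.16 to 2.98, change 5.66, SE 0.58). The beta chain of fibrinogen (*FGB*) rose to 13.90, 13.74, 13.74 and 13.86 (controls 11.69 to 13.28, change 1.54, SE 0.25). *FETUB*, of the fetuin family of plasma proteins, fell to 7.45, 8.72, 9.16 and 8.57 (controls 8.97 to 10.68, change -1.58, SE 0.41), with overlap between the hours. Albumin, the main plasma protein, did not pass the test through its brightest probe set (-0.09, SE 0.04, adjusted p = 0.1), and 3 of its 8 other probe sets were lower. Cow 7 had the lowest control value of this probe set, and albumin was called lower without that array (-0.13, adjusted p = 9.79e-04), without the array of cow 7 at 12 h (-0.14, adjusted p = 0.0147), with array weights (-0.17, adjusted p = 7.72e-05) and through the mean of its probe sets (-0.28, adjusted p = 3.34e-04).

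Metal binding and antioxidant genes held several of the largest rises, and 17 of 30 rose while 6 fell (median 0.50). *GPX3*, a secreted peroxidase, stood at 13.87, 12.97, 12.52 and 13.12 at 12 h, a change of 8.00 (SE 0.94, adjusted p = 1.28e-08). The metallothioneins bind zinc and copper. *MT1A* reached 15.25, 15.09, 15.33 and 15.24 (controls 5.84 to 12.81, median 7.39), a change of 7.17 (SE 0.70, adjusted p = 2.68e-10). *MT2A* reached 14.57, 14.71, 15.00 and 14.66 (controls 8.15 to 13.16, median 10.31), a change of 4.37 (SE 0.52, adjusted p = 1.57e-08). Cow 1 was the highest control for all 3 genes. Probes of such closely related family members can pick up each other's transcripts. The quinone reductase *NQO1* went the other way, to 6.06, 6.11, 6.26 and 7.19 (controls 8.30 to 9.51, change -2.58, SE 0.27).

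**Figure D3:**
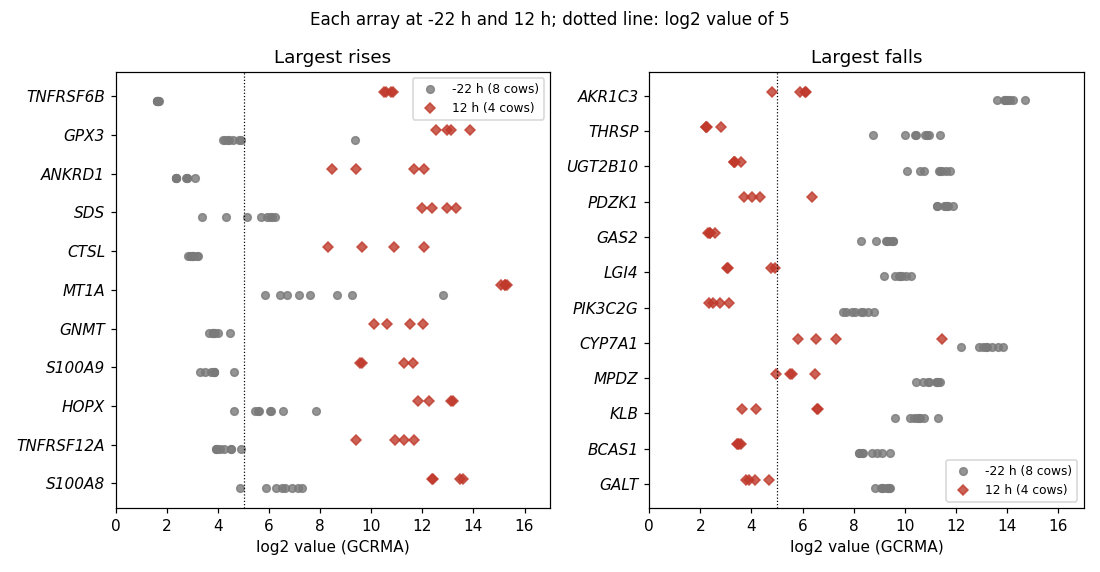
Log2 values (horizontal axis) on each array at -22 h (grey circles, 8 cows) and 12 h (red diamonds, 4 cows) for genes among the 12 largest rises (left) and the 12 largest falls (right) with the same direction in all 4 cows. The dotted line marks a log2 value of 5. The hours do not overlap for any gene shown, and for *CYP7A1* cow 1 at 12 h, at 11.45, lies near the controls.

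Complement was mostly lower and the clotting system was split. Of 33 complement components and regulators 3 rose and 18 fell (median -0.30, 3 higher and 11 lower in the paired fit). *MBL2*, a mannose-binding lectin, fell to 10.78, 9.71, 10.12 and 9.40 (controls 12.11 to 12.86, median 12.48), a change of -2.50 (SE 0.18, adjusted p = 3.83e-13). The rises were those of *CD46* and *CD55*, which protect cells from complement, and of *FCN1*, a ficolin of monocytes and neutrophils. *FCN1* rose to 7.15, 8.21, 8.62 and 6.75 (controls 3.01 to 5.01, change 3.92, SE 0.44). *CD55* rose to 6.35, 6.58, 6.31 and 5.58 (controls 2.14 to 3.39, change 3.38, SE 0.39). Both rose in every cow, without overlap. Of 23 coagulation and fibrinolysis genes 6 rose and 9 fell (median 0.03, 3 higher and 7 lower in the paired fit). These shares were 26.1% and 39.1%, beside 30.9% and 22.2% of all genes. *HRG*, the histidine-rich glycoprotein of plasma, fell to 11.94, 12.74, 12.34 and 12.36 (controls 13.97 to 14.44, change -1.83, SE 0.18). *TFPI2*, an inhibitor of serine proteases, rose to 13.52, 11.63, 12.69 and 10.20 (controls 8.27 to 9.39, change 3.21, SE 0.57). Thrombomodulin (*THBD*), an anticoagulant receptor of vessel walls, rose to 7.94, 9.51, 10.50 and 7.19 (controls 6.18 to 7.05, change 2.07, SE 0.40) but not in the paired fit (adjusted p = 0.0914).

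Chemokines attract leukocytes. Of 24 measured, 10 rose and 0 fell (median 0.77, 0 higher and 0 lower in the paired fit), and 9 were below 5 on all 12 arrays. At limma's unadjusted p below 0.05 as well, 0 were lower. *CCL2*, which attracts monocytes, stood at 8.43, 10.12, 12.19 and 4.46 (controls 3.83 to 5.32, median 4.31), a change of 4.33 (SE 0.72, adjusted p = 6.35e-06). *CXCL8*, which attracts neutrophils, stood at 6.40, 8.31, 10.36 and 3.37 (controls 2.58 to 4.01, change 3.65, SE 0.74). *CXCL2*, with the same function, stood at 2.95, 8.40, 8.63 and 2.29 (controls 2.18 to 2.31, change 3.31, SE 0.75). In all of these cow 7 was highest and cow 8 lay within the range of the controls. In the paired fit none of them was called (adjusted p = 0.104, 0.147 and 0.217).

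The same cows stood apart outside the chemokines. Over the 6445 genes with a value of 5 or more on at least 1 of the 12 arrays, the median SD between cows 1, 3, 7 and 8 was 0.31 at -22 h, 0.24 at 9 h and 0.28 at 12 h, so that the median at 12 h lay below that at -22 h and above that at 9 h. Yet 50 of these genes had an SD of at least 2 at 12 h, against 28 at -22 h and 17 at 9 h. An SD of at least 1.5 over the 4 cows at 12 h together with at most 0.75 over all 8 cows at -22 h was found in 62 genes. Of these 43 were called higher, 4 lower and 15 not called. Cow 7 had the highest value at 12 h in 51 of the 62 and cow 8 the lowest in 39, and in 36 both held. In 25 of them cow 8 lay within the range of the 8 controls. These counts describe genes picked for their spread and were not tested. How often cow 7 was highest or cow 8 lowest over all measured genes was not counted. Nor were genes with a wide spread at -22 h and a narrow one at 12 h.

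Among them, and named after their values were seen, were *PTGS2* and *OLR1*. The prostaglandin synthase *PTGS2* stood at 5.14, 8.05, 9.87 and 2.82 (controls 2.62 to 3.28, change 3.58, SE 0.71). It had stood at 3.34, 4.50, 5.93 and 2.85 in the same cows at 9 h, 3 h earlier, with cow 7 again highest. *OLR1*, a scavenger receptor for oxidised lipoprotein, stood at 6.89, 9.10, 11.58 and 2.88 (controls 2.54 to 2.88, change 4.97, SE 0.81). At 9 h it had been at 5.58, 7.74, 8.71 and 7.55, so cow 8 had lain between cows 1 and 3 and was near the controls at 12 h. The glucose transporter *SLC2A3* stood at 2.91, 7.11, 8.93 and 2.12 (controls 2.05 to 2.12, change 3.17, SE 0.67). The protease *ADAMTS4* stood at 6.19, 7.43, 8.45 and 2.19 (controls 2.03 to 2.20, change 3.93, SE 0.65). *PLAUR*, the receptor of urokinase, stood at 4.32, 6.28, 7.66 and 3.27 (controls 2.62 to 2.99, change 2.48, SE 0.44). In the paired fit none of these 5 genes was called (adjusted p = 0.155, 0.113, 0.221, 0.0974 and 0.12). Their SE too does not reflect the spread at 12 h, where the SD was 3.12 for *PTGS2* and 3.69 for *OLR1*. *ANKRD1*, an ankyrin repeat protein of stressed cells, also ran from 8.47 in cow 8 to 12.06 in cow 3, but every cow lay far above the controls (highest 3.12), a change of 7.79 (SE 0.91, adjusted p = 1.17e-08).

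**Figure D4:**
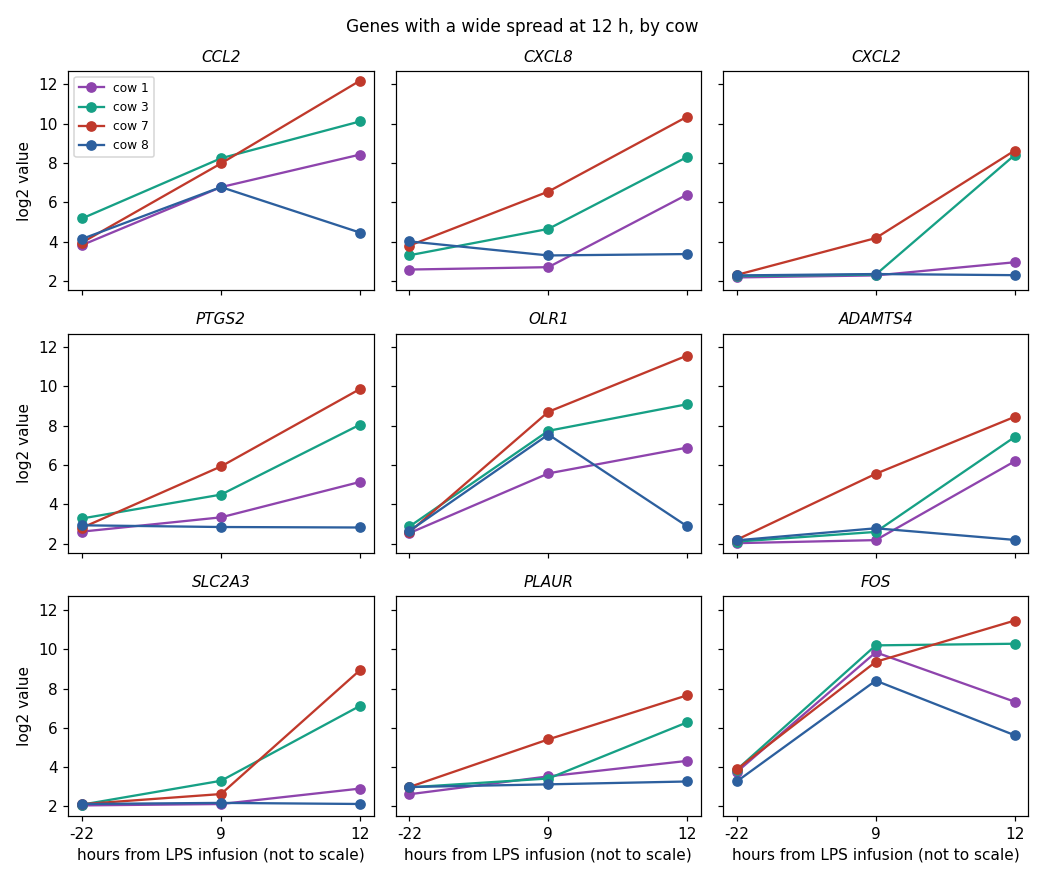
Log2 values (vertical axis) of 9 genes at -22 h, 9 h and 12 h (horizontal axis, not to scale) in the 4 cows sampled at 12 h, 1 line for each cow. At 12 h cow 7 (red) is highest and cow 8 (blue) lowest for each of the 9 genes, which were chosen after their values were seen.

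Skeletal muscle genes differed between the biopsies too. The mean log2 level over *ACTA1*, *MYL1*, *MYL2*, *TNNC1* and *TNNT1*, contractile proteins of muscle chosen after their values were seen, was 7.35, 4.98, 8.22 and 3.70 at 12 h in cows 1, 3, 7 and 8. At -22 h it was 4.75, 5.15, 3.73 and 5.39 in these cows and 9.43 and 8.55 in cows 4 and 5. None of the 5 genes was called at 12 h by limma, and none had an unadjusted p below 0.05. By this mean cow 7 was highest and cow 8 lowest at 12 h, as in many genes with a wide spread (for *MYL1* alone cow 1 was highest), and the part of muscle in that spread was not tested.

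Markers of other cell types were read from lists of known markers. Neutrophil markers had a mean level of 3.74 (3.59 to 3.88) at -22 h and 5.39 (5.04 to 5.78) at 12 h over 13 markers, of which 4 rose and 1, *FCGR3A*, fell. The median change of the list was only 0.03, and the share that rose (30.8%) was near that of all genes (30.9%). The rises were those of *CXCR1* and of the calcium-binding proteins *S100A8*, *S100A9* and *S100A12*, while 7 of the 13, the granule proteins *MPO*, *ELANE* and *CAMP* among them, stayed below 5 on all 12 arrays. *S100A8* rose to 12.43, 13.46, 13.58 and 12.36 (controls 4.85 to 7.31, median 6.55), a change of 6.53 (SE 0.42, adjusted p = 1.68e-14). *S100A9* rose to 9.63, 11.29, 11.62 and 9.56 (controls 3.29 to 4.63, median 3.84), a change of 6.71 (SE 0.43, adjusted p = 1.83e-14). The receptor of CXCL8, *CXCR1*, stood at 3.73, 6.80, 7.02 and 2.56 (controls 2.11 to 2.49, change 2.75, SE 0.64), with cows 3 and 7 high as for the chemokines, and was not called in the paired fit (adjusted p = 0.144).

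Of 12 Kupffer cell and macrophage markers 0 rose and 8 fell, and their mean level went from 8.85 (8.43 to 9.27) to 8.14 (7.83 to 8.46). In the paired fit 1 was higher and 2 were lower. *TIMD4*, a receptor of resident macrophages, fell to 6.00, 5.48, 3.75 and 6.02 (controls 6.21 to 7.71, change -1.59, SE 0.39), with cow 7 lowest and an adjusted p of 0.119 in the paired fit. *CD68*, a lysosomal protein of macrophages, did not pass the test (0.13, SE 0.26, adjusted p = 0.749) but was called higher in the paired fit (0.40, adjusted p = 0.0301). Endothelial markers rose in 2 of 17 cases and fell in 6, with 0 and 3 in the paired fit. The sinusoidal lectin *CLEC4G* fell to 8.68, 8.42, 8.85 and 8.49 (controls 9.75 to 10.91, change -1.78, SE 0.18). The adhesion molecule *VCAM1* rose to 8.30, 10.00, 10.03 and 7.91 (controls 6.50 to 8.08, change 1.46, SE 0.37), with overlap and a paired adjusted p of 0.0693. Of 17 T and natural killer cell markers 10 were below 5 on all 12 arrays. The falls were those of *CD3G*, *CD8A*, *CD247*, *LCK* and *ZAP70*, by 0.69 to 1.19 on the log2 scale, and *CD6* rose by 0.11 (0 higher and 2 lower in the paired fit). None of 5 B and plasma cell markers was called by limma in the fit over the 36 arrays, where 2 were lower at an unadjusted p below 0.05, and 1 was lower in the paired fit. Of 13 stellate cell and fibroblast markers *COL3A1* and *DES* rose, the latter also a muscle gene. Of 9 bile duct markers *CFTR*, *KRT18* and *SPP1* rose, of which the last is also made by activated macrophages, and *KRT7*, the defining keratin, was near 3 at both hours (0.14, SE 0.12, adjusted p = 0.473). Of 8 red blood cell markers 7 were below 5 on all 12 arrays.

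The lists for ribosome assembly, ribosomal proteins and the loading of transfer RNA rose almost whole. For the assembly of ribosomes, 59 of 62 genes rose and 1 fell (median 1.69). The RNA helicase *DDX21* rose to 8.15, 9.07, 8.80 and 8.45 (controls 4.76 to 5.83, median 5.08), a change of 3.47 (SE 0.22, adjusted p = 1.2e-14). Its relative *DDX18* rose to 8.99, 9.43, 8.88 and 8.91 (controls 4.56 to 6.80, change 3.36, SE 0.28). The exception, *HEATR1*, a factor of ribosomal RNA synthesis, fell in its brightest probe set by 1.99 on the log2 scale, but its other 2 probe sets changed by 0.69 and 1.83, so its direction is not settled. Ribosomal proteins rose in 58 of 63 cases and fell in 0 (median 0.63). *RPS21*, of the small subunit, rose to 13.82, 13.77, 13.76 and 14.03 (controls 12.40 to 12.82, change 1.20, SE 0.08). *RPLP0*, of the large subunit, rose to 14.52, 14.65, 14.43 and 14.55 (controls 13.11 to 13.65, change 1.15, SE 0.11). Their rises were small, even between cows and without overlap. Among 19 aminoacyl-tRNA synthetases and cofactors, which load amino acids onto transfer RNA, 18 rose (median 1.48, 17 higher and 0 lower in the paired fit). *TARS1*, for threonine, rose to 13.36, 13.61, 13.84 and 13.78 (controls 11.16 to 12.30, change 2.17, SE 0.16). The cofactor *EEF1E1* rose to 9.53, 9.66, 9.71 and 9.65 (controls 6.33 to 7.98, change 2.53, SE 0.21). *WARS1*, for tryptophan, was the exception at -1.23, SE 0.15 in its brightest probe set (paired adjusted p = 0.0591), while its other 3 probe sets rose by 1.56 to 2.94.

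Behind the ribosome, 42 of 49 genes of entry into the secretory pathway rose and 1, *SEC62*, fell (median 1.23). *SEC61G*, a subunit of the channel through which new proteins enter the endoplasmic reticulum, rose to 14.71, 14.81, 14.57 and 14.62 (controls 11.70 to 12.66, median 12.12), a change of 2.56 (SE 0.21, adjusted p = 7.44e-12). *SAR1A*, the GTPase of the vesicles that leave it, rose to 10.05, 9.97, 9.64 and 9.76 (controls 5.48 to 7.91, change 3.11, SE 0.31). Of 35 genes of the unfolded protein response and its factor ATF4, 24 rose and 4 fell (median 1.66). Both proteins of the endoplasmic reticulum named here had cow 1 as their highest control. *CRELD2* reached 12.51, 12.71, 12.98 and 12.41 (controls 6.83 to 10.38, change 4.95, SE 0.59). *HYOU1*, a chaperone, reached 11.62, 11.52, 11.85 and 11.42 (controls 5.87 to 9.15, change 4.81, SE 0.51), and only 1 of its 4 other probe sets was called. The falls were those of the transcription factor *ATF5* and of all 3 enzymes of serine synthesis on the list, *PHGDH*, *PSPH* and *PSAT1*, which fell to 9.97, 9.75, 9.99 and 8.42 (controls 13.00 to 13.85, median 13.54), a change of -3.96 (SE 0.25, adjusted p = 8.74e-15). Proteasome subunits and partners rose in 36 of 41 cases and fell in 2 (median 0.79). The assembly chaperone *PSMG2* rose to 10.98, 11.62, 11.14 and 11.73 (controls 8.75 to 9.62, change 2.16, SE 0.12). The inducible catalytic subunit *PSMB10* rose to 9.00, 10.18, 9.07 and 9.32 (controls 6.62 to 8.69, change 2.13, SE 0.37). The activator *PSME4* fell to 8.01, 7.80, 7.89 and 7.80 (controls 8.48 to 9.35, change -1.18, SE 0.12), and *PSMA7* fell less.

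Bile acid synthesis and transport was among the lists with the largest shares of falls: 19 of 22 genes fell and 2 rose (median -2.20). *AKR1C3*, an aldo-keto reductase of steroids, gave the largest fall of all measured genes, to 6.14, 5.92, 6.11 and 4.82 (controls 13.61 to 14.70, median 14.00), a change of -8.31 (SE 0.34, adjusted p = 4.87e-19). *PDZK1*, a scaffold of membrane transporters, fell to 4.03, 3.73, 6.38 and 4.33 (controls 11.25 to 11.88, change -6.95, SE 0.43). Both fell in all 4 cows by more than 4 on the log2 scale. *CYP7A1*, which starts and limits the classic route from cholesterol to bile acids, fell to 11.45, 7.32, 5.83 and 6.52 (controls 12.22 to 13.85, median 13.21), a change of -5.41 (SE 0.57, adjusted p = 1.55e-09). Cow 1 was near its own value of 12.22 at -22 h, the lowest control, and the other 3 cows were far below theirs. In the paired fit *CYP7A1* was not called (adjusted p = 0.0645). Those that rose were *SLC51A*, a subunit of the basolateral bile acid exporter, and *SLCO4A1*, an organic anion transporter, which reached 8.33, 9.54, 9.33 and 9.11 (controls 2.22 to 5.75, change 5.97, SE 0.40). Cow 1 was again the highest control.

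Of 41 drug metabolism genes 36 fell and 2 rose (median -1.52, 1 higher and 36 lower in the paired fit). *UGT2B10*, a glucuronosyltransferase, fell to 3.32, 3.33, 3.58 and 3.35 (controls 10.10 to 11.79, change -7.74, SE 0.28). *FMO5*, a flavin monooxygenase, fell to 8.05, 7.92, 8.76 and 7.88 (controls 12.65 to 13.32, change -4.92, SE 0.17). *CYP2U1*, a cytochrome P450, fell to 6.03, 4.71, 4.55 and 5.39 (controls 9.54 to 10.69, change -4.77, SE 0.26). The cows agreed closely for *UGT2B10*, at the bottom of the scale. *CYP2E1*, the ethanol oxidising cytochrome P450, fell less, to 13.48, 12.77, 13.54 and 12.46 (controls 14.75 to 15.19, change -1.89, SE 0.16). The methyltransferase *TPMT* rose, and so did *SULT1E1*, which inactivates oestrogens and reached 10.20, 9.34, 9.25 and 10.64 (controls 4.82 to 7.42, median 5.63), a change of 3.91 (SE 0.54, adjusted p = 2.67e-07).

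Lipid metabolism was lower in synthesis and in oxidation. Of 29 genes of lipogenesis and triglyceride synthesis 17 fell and 2 rose (median -1.59, 1 higher and 15 lower in the paired fit). *THRSP*, a nuclear regulator of lipogenesis, fell to the bottom of the scale, at 2.81, 2.25, 2.23 and 2.23 (controls 8.74 to 11.39, median 10.62), a change of -8.06 (SE 0.63, adjusted p = 1.64e-12). *MOGAT1*, a monoacylglycerol acyltransferase, fell to 4.93, 4.21, 4.41 and 5.11 (controls 8.58 to 9.67, change -4.43, SE 0.22). *ACSS2*, which activates acetate, the main lipogenic precursor of ruminants, fell to 7.05, 5.57, 6.82 and 8.18 (controls 10.81 to 11.53, change -4.25, SE 0.41). All 3 fell in every cow. Lipoprotein lipase (*LPL*) rose, as did the lipid droplet protein *PLIN2* (2.29, SE 0.32, paired adjusted p = 0.0665). Of 33 genes of fatty acid oxidation and ketogenesis 27 fell and 1 rose (median -1.29). The peroxisomal enzyme *HSD17B4* fell to 10.88, 10.03, 10.98 and 10.80 (controls 13.75 to 14.34, median 14.13), a change of -3.46 (SE 0.18, adjusted p = 9.45e-17). *PDK4*, which holds back pyruvate oxidation, stood at 4.69, 6.47, 7.74 and 3.72 (controls 7.35 to 10.21, change -3.49, SE 0.54), with overlap and an adjusted p of 0.0762 in the paired fit. The rise was that of *ANGPTL4*, an inhibitor of lipoprotein lipase, at 8.58, 9.38, 10.34 and 8.71 (controls 6.88 to 7.51, change 2.15, SE 0.38).

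In cholesterol synthesis and uptake 15 of 20 genes fell and 3 rose (median -1.38, 1 higher and 9 lower in the paired fit). The sterol reductase *TM7SF2* fell to 8.47, 7.99, 8.64 and 8.85 (controls 11.02 to 11.67, change -2.89, SE 0.20). Another sterol reductase, *DHCR7*, fell to 9.05, 7.84, 8.46 and 10.78 (controls 11.52 to 12.08, change -2.74, SE 0.38), least in cow 8. *PMVK*, phosphomevalonate kinase, of the same route, rose to 12.12, 11.84, 11.26 and 12.32 (controls 9.44 to 10.45, change 2.08, SE 0.25). Of 19 genes of apolipoproteins and lipoprotein handling 13 fell and 2 rose (median -0.55). *APOA5*, which regulates plasma triglycerides, fell to 10.15, 10.84, 10.45 and 10.65 (controls 12.70 to 13.18, change -2.37, SE 0.19). The rises were those of the phospholipid transfer protein *PLTP* and of *SCARB1*, the receptor of high density lipoprotein, which reached 12.04, 11.46, 11.42 and 11.43 (controls 9.25 to 9.73, change 2.13, SE 0.16). For *APOA5* and *SCARB1* the hours were far apart and the cows close together.

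Carbohydrate genes were split. Of 24 genes of gluconeogenesis and glucose output 5 rose and 11 fell (median -0.24, 2 higher and 11 lower in the paired fit). Of 31 genes of glycolysis and glycogen 11 rose and 11 fell (median -0.07). The shares were 20.8% and 45.8% in the former list and 35.5% and 35.5% in the latter, beside 30.9% and 22.2% of all genes. Both forms of phosphoenolpyruvate carboxykinase, the entry step of gluconeogenesis, fell. The cytosolic *PCK1* fell to 11.78, 12.14, 11.85 and 11.60 (controls 14.39 to 14.82, median 14.64), a change of -2.81 (SE 0.30, adjusted p = 1.42e-09). The mitochondrial *PCK2* fell to 8.70, 8.36, 9.12 and 9.51 (controls 11.70 to 12.04, change -2.90, SE 0.19). Serine dehydratase (*SDS*), which turns serine into pyruvate, went against them and rose to 11.97, 13.30, 12.37 and 12.98 (controls 3.37 to 6.22, median 5.80), a change of 7.30 (SE 0.47, adjusted p = 2.46e-14). The liver pyruvate kinase *PKLR* fell to 3.50, 4.80, 2.89 and 4.14 (controls 7.76 to 8.97, change -4.48, SE 0.43). *PPP1R3B*, which directs a phosphatase to glycogen, fell to 8.12, 7.10, 7.62 and 7.54 (controls 10.87 to 11.50, change -3.57, SE 0.29). *GALT*, an enzyme of galactose use, fell to 3.91, 3.78, 4.70 and 4.15 (controls 8.82 to 9.43, change -5.07, SE 0.25). None of these genes overlapped between the hours.

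Of 29 genes of amino acid degradation 21 fell and 3 rose (median -1.15). *AMT*, of the glycine cleavage system, fell to 2.22, 2.65, 2.23 and 2.11 (controls 6.19 to 7.44, median 7.17), a change of -4.76 (SE 0.29, adjusted p = 7.78e-15). *KMO*, of tryptophan breakdown, fell to 4.60, 4.44, 6.36 and 6.85 (controls 7.54 to 10.90, change -3.59, SE 0.61). *BCAT2*, which transaminates branched-chain amino acids and was named after its values were seen, rose to 7.50, 6.94, 6.85 and 5.23 (controls 2.84 to 3.44, change 3.43, SE 0.31). None of the 3 genes overlapped between the hours. Of 22 genes of the methionine cycle and one-carbon metabolism 16 fell and 5 rose (median -1.42). *GNMT*, which uses S-adenosylmethionine to methylate glycine, rose to 10.09, 12.03, 10.61 and 11.50 (controls 3.66 to 4.46, median 3.81), a change of 7.16 (SE 0.36, adjusted p = 6.59e-17). Both enzymes that break down its product sarcosine fell. *SARDH* fell to 2.87, 4.89, 4.87 and 3.51 (controls 7.35 to 8.19, change -3.83, SE 0.27). *PIPOX* fell to 5.48, 6.68, 5.14 and 5.94 (controls 9.04 to 10.40, change -4.05, SE 0.44). Of 10 genes of the urea cycle and nitrogen handling 5 fell and 1 rose (median -0.45, 1 higher and 3 lower in the paired fit). Ornithine carbamoyltransferase (*OTC*) fell to 7.32, 8.15, 7.41 and 8.04 (controls 9.48 to 10.09, change -2.07, SE 0.16). The rise was that of arginase (*ARG1*), to 15.25, 15.32, 14.99 and 15.34 (controls 14.06 to 14.54, change 0.90, SE 0.12).

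Of 23 genes of the growth hormone and IGF system 12 fell and 2 rose (median -0.44, 0 higher and 10 lower in the paired fit). *KLB*, the co-receptor of the hormones FGF19 and FGF21, fell to 6.56, 3.64, 4.18 and 6.62 (controls 9.62 to 11.31, median 10.51), a change of -5.23 (SE 0.37, adjusted p = 1.69e-13), and 2 of its 3 other probe sets were lower. The prolactin receptor *PRLR* fell to 7.56, 7.33, 7.70 and 6.37 (controls 11.19 to 11.80, change -4.17, SE 0.19). *IGFALS*, which holds IGF in the circulation, fell to 6.53, 5.55, 5.74 and 5.95 (controls 8.52 to 10.21, change -3.22, SE 0.27). The IGF-binding proteins *IGFBP3* and *IGFBP4* rose. On the glucocorticoid axis 7 of 15 rose and 2 fell (median 0.56, 4 higher and 1 lower in the paired fit). The kinase *SGK1* rose to 13.79, 13.83, 13.42 and 13.79 (controls 10.05 to 12.33, change 3.07, SE 0.25). The falls were those of the glucocorticoid receptor *NR3C1* and of *SERPINA6*, the corticosteroid-binding globulin, which reached 7.40, 8.37, 8.36 and 8.48 (controls 10.28 to 11.22, change -2.64, SE 0.33). Of 9 clock genes 1 rose and 2 fell (median 0.10). The share that rose, 11.1%, was below the 30.9% of all genes, and the share that fell was near their 22.2%. The repressor *PER2* fell to 5.96, 5.40, 5.25 and 3.58 (controls 8.60 to 9.79, change -4.28, SE 0.33). The clock output factor *HLF* fell to 7.53, 8.53, 8.70 and 8.57 (controls 10.51 to 11.32, change -2.65, SE 0.22). The kinase *CSNK1D* rose by 1.39 (SE 0.16) in its brightest probe set, and none of its other 3 was called. For clock genes the time of day of the biopsies differed with the hour after LPS, and the effects cannot be told apart.

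In oxidative phosphorylation 33 of 74 genes rose and 15 fell (median 0.16, 21 higher and 6 lower in the paired fit). *NDUFA5* of complex I rose to 12.03, 12.08, 12.13 and 12.31 (controls 10.39 to 10.89, change 1.51, SE 0.10). *SDHB* of complex II fell to 11.06, 10.93, 11.12 and 11.21 (controls 11.72 to 12.23, change -0.84, SE 0.09). Both changes were small and without overlap. Of 31 lysosomal genes 17 fell and 8 rose (median -0.39, 5 higher and 12 lower in the paired fit). The protease *CTSL* rose to 9.64, 8.31, 12.05 and 10.91 (controls 2.84 to 3.23, median 3.00), a change of 7.21 (SE 0.56, adjusted p = 1.66e-12). *CTSC*, which activates granule proteases, rose to 14.02, 13.80, 13.63 and 13.78 (controls 10.26 to 11.55, change 2.98, SE 0.20). *CTSF* fell to 6.53, 6.48, 6.55 and 6.92 (controls 7.71 to 8.66, change -1.64, SE 0.14). Of 30 genes of the extracellular matrix and its proteases 9 rose and 6 fell (median -0.02, 5 higher and 2 lower in the paired fit), shares near those of all genes. *SPP1*, a secreted phosphoprotein, rose to 7.43, 9.52, 9.61 and 8.94 (controls 2.46 to 3.12, change 6.18, SE 0.51). The matrix protein *TNC* rose to 11.86, 11.68, 11.84 and 12.60 (controls 5.33 to 6.77, change 5.81, SE 0.34). *COL18A1*, a basement membrane collagen, fell to 7.44, 6.87, 6.74 and 6.86 (controls 9.66 to 10.38, change -3.02, SE 0.20). Of 46 cell cycle genes 23 were below 5 on all 12 arrays, 13 rose and 7 fell (median 0.01, 9 higher and 4 lower in the paired fit). These shares, 28.3% and 15.2%, were below those of all genes (30.9% and 22.2%). The cyclin-dependent kinase *CDK4* rose to 9.48, 9.46, 9.15 and 9.27 (controls 7.83 to 8.39, change 1.30, SE 0.11). Cyclin E1 (*CCNE1*) was called at 1.45, SE 0.30 while below 5 on every array. Thymidylate synthase (*TYMS*) fell to 4.20, 4.71, 4.16 and 4.23 (controls 4.79 to 6.28, change -1.31, SE 0.25).

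Single genes without a list completed the largest changes. The homeodomain protein *HOPX* rose to 13.13, 12.26, 11.83 and 13.20 (controls 4.62 to 7.82, change 6.64, SE 0.63). A locus without a gene name, *LOC613358*, rose by 6.54. *GAS2*, a cytoskeletal protein, fell to 2.29, 2.38, 2.57 and 2.37 (controls 8.28 to 9.55, change -6.79, SE 0.24). The scaffold *MPDZ* fell to 5.59, 4.95, 6.48 and 5.52 (controls 10.45 to 11.39, change -5.40, SE 0.24). The lipid kinase *PIK3C2G* fell to 2.48, 2.32, 3.11 and 2.77 (controls 7.58 to 8.80, change -5.48, SE 0.22). The secreted *LGI4* fell to 4.92, 3.08, 4.76 and 3.03 (controls 9.20 to 10.25, change -5.85, SE 0.42). *BCAS1* fell to 3.42, 3.57, 3.49 and 3.48 (controls 8.19 to 9.41, change -5.17, SE 0.26). In every one of these genes all 4 cows lay outside the range of the controls, and *GAS2*, *PIK3C2G*, *LGI4* and *BCAS1* were below 5 in all 4 cows at 12 h, so that their falls are lower bounds in size.

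To see where 12 h differed from 9 h, its arrays were tested against the 8 arrays at 9 h in the same model. The hours 3, 6 and 48 were not tested against 12 h. The arrays at 9 h include those of cows 2, 4, 5 and 6, which had no biopsies at 3 and 6 h. Between these hours 4927 probe sets (20.4%) were called, 2719 higher at 12 h (11.3%) and 2208 lower (9.15%), or 1496 genes higher (16.3%) and 958 lower (10.5%). In the paired fit of the 4 cows 1504 probe sets were higher and 1334 lower, and with these cows alone and no block 1777 and 1493. The list counts below are from the fit over all arrays. Both comparisons share the arrays at 12 h, so each is given by its own counts.

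The lists whose members rose against -22 h moved apart between 9 and 12 h. Ribosomal proteins were higher at 12 h in 38 of 63 cases and lower in 0, proteasome genes higher in 17 of 41 and lower in 0, and oxidative phosphorylation genes higher in 48 of 74 and lower in 0. Ribosome assembly genes were lower in 28 of 62 and higher in 2, genes of the unfolded protein response lower in 7 of 35 and higher in 0, transfer RNA synthetases lower in 7 of 19 and higher in 2, and Toll-like receptor and NF-kappaB genes lower in 10 of 32 and higher in 2. *RPS21* differed from 9 h by 0.41 (SE 0.08, adjusted p = 2.90e-04) and *TARS1* by -0.63 (SE 0.16, adjusted p = 0.00473). Among the metabolic lists the drug metabolism genes were lower in 13 of 41 and higher in 4, glycolysis and glycogen genes higher in 10 of 31 and lower in 4. Of 26 acute phase proteins 1 was lower and 0 higher. At limma's unadjusted p below 0.05 the counts of 0 became 0 for ribosomal proteins, 1 for proteasome genes, 0 for oxidative phosphorylation, 0 for the unfolded protein response and 1 for the acute phase proteins.

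Several genes that stood far below their level at -22 h at 9 h had risen again at 12 h. Levels at 9 h were not tested against -22 h, here or for the falls given next. *NFATC3*, a factor of calcineurin signaling, had a mean of 9.41 ± 0.13 (SD) at -22 h, 2.88 ± 0.45 at 9 h and 7.98 ± 0.63 at 12 h, with a difference between the last 2 hours of 5.10 (SE 0.20, adjusted p = 3.98e-18). *CYP7A1* stood at 3.10 ± 0.50 at 9 h and differed by 4.68 (SE 0.57, adjusted p = 3e-07), which was not called in the paired fit (adjusted p = 0.0873). *CYP1A1*, a cytochrome P450 induced by aromatic compounds, went from 13.84 ± 0.13 to 7.19 ± 0.57 and 11.26 ± 0.76, and *DSC2*, a desmosome cadherin, from 8.38 ± 0.39 to 3.33 ± 0.74 and 7.29 ± 0.57. The call of *DSC2* against -22 h was lost without cow 7 at 12 h (-0.82). *PPM1K*, the phosphatase that activates branched-chain amino acid breakdown, and *TAT*, tyrosine aminotransferase, differed from 9 h by 4.15 (SE 0.37) and 4.05 (SE 0.69). At 12 h neither passed the test against -22 h (adjusted p = 0.369 and 0.612), and *TAT* was not called against 9 h in the paired fit (adjusted p = 0.0898). *GLS2*, liver glutaminase, was higher than at 9 h by 3.26 (SE 0.35), *PPP1R3B* by 3.36 (SE 0.29), *HLF* by 2.48 (SE 0.22) and *KLB* by 2.39 (SE 0.37).

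Other genes stood well above their level at -22 h at 9 h and had fallen by 12 h. *SLC7A5*, an importer of large neutral amino acids, had means of 1.93 ± 0.03, 8.17 ± 0.62 and 3.95 ± 1.14 at -22, 9 and 12 h, a difference between the last 2 hours of -4.23 (SE 0.29, adjusted p = 5.76e-12), and stood at 4.30, 4.53, 4.71 and 2.25 at 12 h, with cow 8 close to the controls (paired adjusted p against -22 h = 0.0624). *ZC3H12A*, which degrades inflammatory mRNAs, went from 8.51 ± 0.68 at 9 h to 5.78 ± 0.45, *LARS2*, a mitochondrial transfer RNA synthetase, from 6.27 ± 0.58 to 3.38 ± 0.26, *TTI2*, a cochaperone, from 9.27 ± 0.42 to 6.46 ± 1.01 (paired adjusted p against -22 h = 0.148) and the dynein regulator *NDEL1* from 10.66 ± 0.40 to 7.90 ± 0.90 (paired adjusted p against -22 h = 0.155). *SPSB1*, of the SOCS box family, fell from 8.19 ± 0.70 to 4.56 ± 1.82. It stood at 3.18, 5.97, 6.29 and 2.81 at 12 h, within the range of the controls (5.46 to 6.37) in cows 3 and 7 and below it in cows 1 and 8, and its call against -22 h was lost without cow 1 or without cow 8 at 12 h (-0.88 and -0.75) and in the paired fit (adjusted p = 0.386). Only cows 1 and 8 thus lay below the controls.

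**Figure D5:**
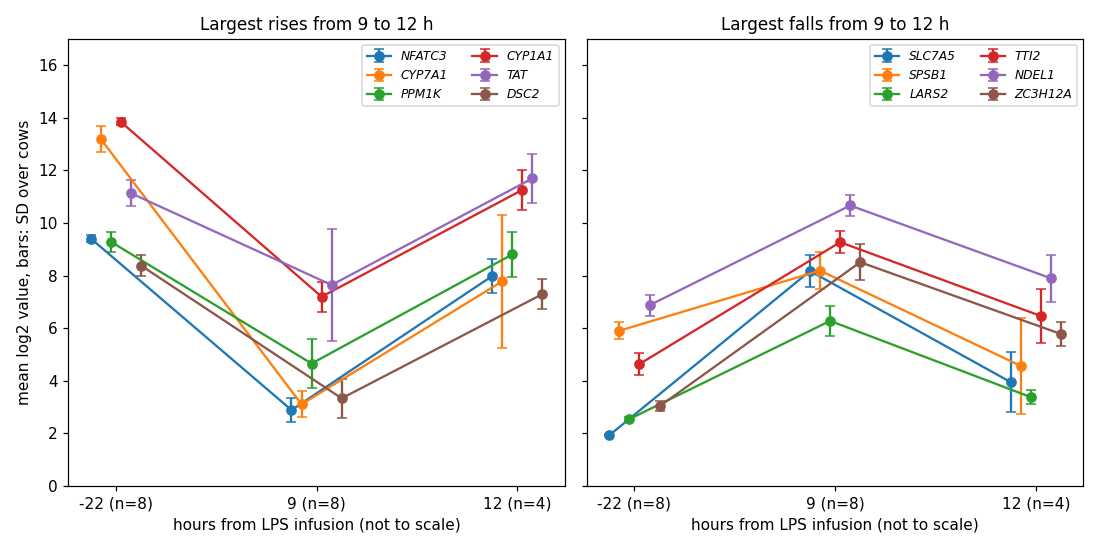
Mean log2 values (vertical axis, bars are the SD over cows) at -22 h (8 cows), 9 h (8 cows) and 12 h (4 cows) of the 6 largest rises (left) and the 6 largest falls (right) from 9 to 12 h with the same direction in all 4 cows. All 6 genes on the left have their lowest mean at 9 h and all 6 on the right their highest, and at 12 h the bars are widest for *CYP7A1* (SD 2.52) and *SPSB1* (SD 1.82).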

How the data were processed

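Liver biopsies of dairy cows were hybridised to the 1-colour Affymetrix Bovine Genome Array, 1 cow at 1 hour per array and no pooling, and all 36 arrays entered the model. The deposited values are log2 intensities that the authors computed with GCRMA, which corrects the background by probe sequence, applies quantile normalization across arrays and summarises each probe set. GCRMA makes low values similar on all arrays and gives no detection calls, and the number of arrays limits the precision. The raw array files were not used here.

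Groups were taken from the sample labels, and cows from the cow numbers in them. The 36 arrays were fitted with 1 mean per hour in limma (version 3.58.1, R version 4.3.3; lmFit and eBayes), as in the study's methods, with the contrasts 12 h minus -22 h and 12 h minus 9 h. P-values were adjusted by Benjamini-Hochberg over all 24128 probe sets. Before this the fit was run on simulated arrays with independent noise and no effect of the cow. That run cannot show how repeated cows or a spread that differs between hours affect the calls. Of the 24128 probe sets 13318 name 1 gene in the platform annotation, 86 several and 10724 none, and 112 are controls. Each of 9155 genes is represented by its brightest probe set (mean of all 36 arrays), and 2913 genes have several. Gene symbols were those of the annotation, and 13263 of 13292 probe sets used had their gene in a RefSeq table. The lists hold 1530 symbols, of which 1169 were measured.

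The members and lists were chosen with earlier results of these data known. Named were the 12 largest rises and falls with the same direction in all 4 cows, up to 3 called members of each process list with the largest change and the largest against it, the 6 largest rises and falls from 9 to 12 h, and for each cell type the first measured marker and the called markers with the largest rise and fall, some of which are left out of the text. *HP*, *IL6*, *OLR1*, *PTGS2*, *CXCR1*, *BCAT2* and the muscle genes were added after their values were seen, as were members of short counts named without values.

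The numbers of the cows pair the arrays, since they mark the same animal. The deviations from the hour means correlated at 0.16 to 0.40 within the 4 cows (mean 0.25) and at -0.20 to 0.10 between different cows, with a random block correlation of 0.11. The alternatives were the cow as a fixed or random block, the paired fit, fewer arrays, median centring, filters, another variance prior, array weights, each array left out in turn, probe sets averaged per gene, and a Bonferroni threshold of 0.01. A search for motifs in promoters was planned and not run. Figures were drawn with matplotlib version 3.10.9.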

Additional observations from a re-analysis of the deposited data

Results flagged for a closer look

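Of 290 groups of values, the 145 genes given with values at -22 h and at 12 h, 43 held a single array that stood far from all others of its hour, where chance gives about 1 in 20 groups. In all, 15 of the 43 lay on the array of cow 1 at -22 h, 6 on that of cow 3, 4 on that of cow 7 and 1 each on those of cows 4 and 8. At 12 h 4 lay on the array of cow 1, 1 on that of cow 3, 6 on that of cow 7 and 5 on that of cow 8. The genes are not independent, and part of them were named for their spread.

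At -22 h cow 1 differed from the other 7 cows, whose range follows each value, in *AMT* (6.19 against 6.85 to 7.44), *BAX* (2.99 against 2.51 to 2.72), *BCL3* (5.83 against 4.11 to 4.73), *CRELD2* (10.38 against 6.83 to 7.99), *CREM* (6.50 against 4.49 to 5.42), *GADD45B* (9.46 against 5.11 to 6.56), *GPX3* (9.36 against 4.21 to 4.92), *HYOU1* (9.15 against 5.87 to 7.25), *KRT7* (3.40 against 2.90 to 3.08), *PIM1* (9.90 against 5.64 to 6.99), *SGK1* (12.33 against 10.05 to 10.64), *SLCO4A1* (5.75 against 2.22 to 3.25), *SOCS3* (6.12 against 2.49 to 3.35), *TARS1* (12.30 against 11.16 to 11.52) and *TTI2* (5.54 against 4.12 to 4.79). All but *KRT7* of these genes were called at 12 h, and for each of the called genes cow 1 lay on the side of the values at 12 h. Cow 3 at -22 h stood apart in *DHX58* (8.47 against 5.67 to 6.85), *GNMT* (4.46 against 3.66 to 3.99), *HSD17B4* (13.75 against 14.07 to 14.34), *OLR1* (2.88 against 2.54 to 2.69), *PSMB10* (8.69 against 6.62 to 7.49) and *ZC3H12A* (3.44 against 2.79 to 3.05). Cow 7 at -22 h, whose array also had the lowest correlation with the others, stood apart in *ALB* (15.87 against 16.14 to 16.22), *HEATR1* (10.98 against 11.38 to 11.69), *IGFALS* (10.21 against 8.52 to 9.30) and *S100A9* (4.63 against 3.29 to 3.86). Cow 4 stood apart in *TNFRSF6B* (1.67 against 1.61 to 1.64), a difference at the bottom of the scale, and cow 8 in *CYP2U1* (10.69 against 9.54 to 10.07).

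At 12 h cow 1 differed from the other 3 cows in *HLF* (7.53 against 8.53 to 8.70), *SCARB1* (12.04 against 11.42 to 11.46), *SERPINA6* (7.40 against 8.36 to 8.48) and *THRSP* (2.81 against 2.23 to 2.25), and cow 3 in *TYMS* (4.71 against 4.16 to 4.23). Cow 7 stood apart in *HEATR1* (9.19 against 9.53 to 9.58), *IL6* (6.56 against 2.54 to 2.63), *KRT7* (3.68 against 3.00 to 3.04), *SGK1* (13.42 against 13.79 to 13.83), *SIGIRR* (6.70 against 7.52 to 7.56) and *UGT2B10* (3.58 against 3.32 to 3.35). Cow 8 stood apart in *AKR1C3* (4.82 against 5.92 to 6.14), *CTSF* (6.92 against 6.48 to 6.55), *LARS2* (3.77 against 3.21 to 3.28), *PSAT1* (8.42 against 9.75 to 9.99) and *SLC7A5* (2.25 against 4.30 to 4.71). Of these, *IL6* in cow 7 is the case in which the call itself rested on the array.

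The change from -22 h differed between 12 h and 9 h, by the test of 12 h against 9 h in limma, for the genes with the largest such differences. At 12 h *NFATC3* (5.10), *CYP7A1* (4.68), *PPM1K* (4.15), *CYP1A1* (4.06), *TAT* (4.05) and *DSC2* (3.96) were higher than at 9 h, and *SLC7A5* (-4.23), *SPSB1* (-3.62), *LARS2* (-2.90), *TTI2* (-2.81), *NDEL1* (-2.77) and *ZC3H12A* (-2.73) were lower, in log2 units and in the same direction in all 4 cows.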

How the results depend on the processing

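All counts at 12 h against -22 h stayed within 1.5 times the reported ones when the cow was a fixed block (5458 probe sets higher and 4627 lower) or a random block (5576 and 4670), after median centring, filtering, another variance prior or array weights, and without any single array (5093 to 5328 higher, 4238 to 4657 lower, and at least 2-fold 2442 to 2690 higher, 2490 to 2619 lower). The paired fit of the 4 cows, with 8 arrays, gave 3164 higher and 2925 lower, and against 9 h 1504 and 1334. With the arrays of cows 1, 3, 7 and 8 alone and no block, 1777 probe sets were higher than at 9 h. A Bonferroni threshold of 0.01 left 2114 higher and 1891 lower, 1706 higher by at least 2-fold, and against 9 h 362 and 310. Leaving out single arrays gave 2088 to 2939 higher and 1710 to 2257 lower than at 9 h. Of the 145 genes given with values, the fixed block changed the call of 1 (*IL6*), the paired block of 29 (28 lost, *CD68* gained), and median centring of 0. Through the mean of its probe sets *HEATR1* reversed to 0.18 and *WARS1* to 1.39, as their dimmer probe sets went the other way. Of 1589 called genes with more than 1 probe set, 90 had another called in the opposite direction. Counts of cell type lists with few members moved more often than those of processes. Signal limits the rest: 2711 genes were below 5 on all 12 arrays, and genes near the top of the scale such as *HP* and *ALB* can show little further rise.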

Other observations

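Probe sets without a single gene name moved in another proportion than the named genes. Of 10724 such probe sets 1509 were higher and 1956 lower at 12 h than at -22 h, whereas 2830 of the 9155 named genes were higher and 2032 lower. The difference in proportion was not tested, and the sequences behind the probe sets without a single gene name were not analysed here.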
